A study of Mus musculus with 6 samples.

Results

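The EGF receptor family and its ligands were followed here as 10 genes: the receptor genes Egfr, Erbb2 and Erbb3, the ligand genes Areg, Ereg, Hbegf, Btc, Epgn and Tgfa, and Errfi1, the gene of the inhibitor MIG6. They were chosen by name, and all 10 were found among the 24346 gene symbols of the deposited tables. RNA had been sequenced from 4T1 cells, a mouse mammary carcinoma line, in 3 groups of 2 libraries. The groups shRNA1 and shRNA3 carried short hairpin RNAs 1 and 3 against the long noncoding RNA AU021063, and WT cells of the same line were mock transfected. The labels name no group with a non-targeting hairpin, and do not say whether a hairpin line is a pool or a clone, or whether libraries of 1 group came from separate cultures. Any p-value here is therefore set against the variation among these 6 libraries, and part or all of it may be technical. Values were taken to be FPKM, which scales fragments by transcript length and by the mapped total, so that levels of different genes can be compared. The series title links AU021063 to activation of the Mek/Erk pathway, for which this receptor family is a principal input.

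EGFR, the product of Egfr, is a receptor tyrosine kinase of the cell surface. Binding of a ligand joins it to another EGFR or to ERBB2, the product of Erbb2, which has no known ligand of its own, or to ERBB3, which has a weak kinase and relies on its partners. The ligands are made as membrane-anchored precursors, and proteases of the ADAM family cut them free. The activated receptor feeds the RAS and ERK and the PI3K pathways, and MIG6 binds the kinase domain and blocks it, as a feedback inhibitor whose gene is induced by the same pathway. Epithelial tumour cells often make both a receptor and its ligands.

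The target and the cell identity were checked first. AU021063 was listed at 1.04 and 0.572 FPKM in the shRNA1 libraries and at 0.785 and 0 in the shRNA3 libraries, against 1.82 and 1.67 in the WT libraries, which rested on 6, 3, 5, 0, 11 and 10 sequenced fragments. Relative depth, read from the steps between low values, was 86.8% to 105% of that of WT replicate 1, and the FPKM values of a library summed to between 560862 and 604022. Of 7 epithelial markers 5 reached 1 FPKM, while Krt5 and Krt14 were at most 0.042 FPKM in every library. The epithelial sum was 1020 to 1090 FPKM with shRNA1 and 734 to 737 with shRNA3, against 929 to 962 in WT. It was mainly Krt8 and Krt18, with WT means of 428 and 505 FPKM. With shRNA3 Krt8, Krt18 and Krt7 were 0.618-fold, 0.907-fold and 0.864-fold of WT. Epcam and Cdh1, at WT means of 2.11 and 1.25 FPKM, were 1.55-fold and 1.29-fold. With shRNA1 these 5 were 1.09-fold, 1.13-fold, 1.44-fold, 2.11-fold and 1.22-fold, in the same order. Of 4 mesenchymal markers 2 reached 1 FPKM, with a sum of 2860 to 3040 FPKM with shRNA1 and 3090 to 3230 with shRNA3, against 2110 to 2200 in WT, and Cdh2 was at 0. Of 6 fibroblast markers 4 reached 1 FPKM, and their sum was 96.8 to 98.3 FPKM with shRNA1 and 106 to 108 with shRNA3, against 80.5 to 81.8 in WT. The 4 did not move together. With shRNA1 and shRNA3 in turn, Dcn was 3.36-fold and 4.23-fold of WT and Col1a1 2.05-fold and 2.71-fold. Pdgfra was 0.839-fold and 0.778-fold, and Pdgfrb 0.92-fold and 1.05-fold. Of 5 macrophage markers Cd68 alone reached 1 FPKM, with a list sum of 16.0 to 18.5 FPKM with shRNA1 and 27.5 to 28.1 with shRNA3, against 6.51 to 6.69 in WT, while Ptprc and Itgam were listed at 0 in all 6 libraries. The endothelial sum was at most 0.194 FPKM, and the 3 T cell markers were at 0. The part of these marker differences in the results below was not tested.

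The 6 libraries were compared on the log2(FPKM + 1) scale with limma for the 11079 genes that averaged 1 FPKM or more, and a gene was called at a Benjamini-Hochberg adjusted p under 0.05. On this scale the change of a low gene is understated. Of the 10 genes, Egfr, Erbb2, Areg, Hbegf, Tgfa and Errfi1 passed this filter, and Erbb3, Ereg, Btc and Epgn did not. Over both hairpins 3 of the 6 tested genes rose (Egfr, Errfi1 and Areg) and 0 fell, and 24.1% of all genes tested were called higher and 25.9% lower (5538 genes in all). With shRNA1 alone 4 of 6 rose (the same 3 and Tgfa) and 0 fell, against 17.6% and 18.4% of all genes (36.0% in all). With shRNA3 alone 2 of 6 rose (Egfr and Errfi1) and 0 fell, against 27.4% and 27.8% of all genes (55.2% in all). The median log2 change of the 6 tested genes was 0.49 with shRNA1 and -0.06 with shRNA3, where that of all genes tested was -0.01 in both comparisons. The comparisons of each hairpin with WT share the 2 WT libraries. In a further comparison, of shRNA3 with shRNA1, 0 of 6 were higher and 3 lower (Areg, Tgfa and Erbb2), against 22.0% and 20.5% of all genes (42.5% in all). In all 3 comparisons with WT the balance of calls over all genes depended on the scale: after every library was brought to an equal total, the higher share of the calls was 34.3% over both hairpins, 34.9% with shRNA1 and 37.6% with shRNA3, against 48.2%, 49.0% and 49.7% on the values as deposited.

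**Figure D1:**
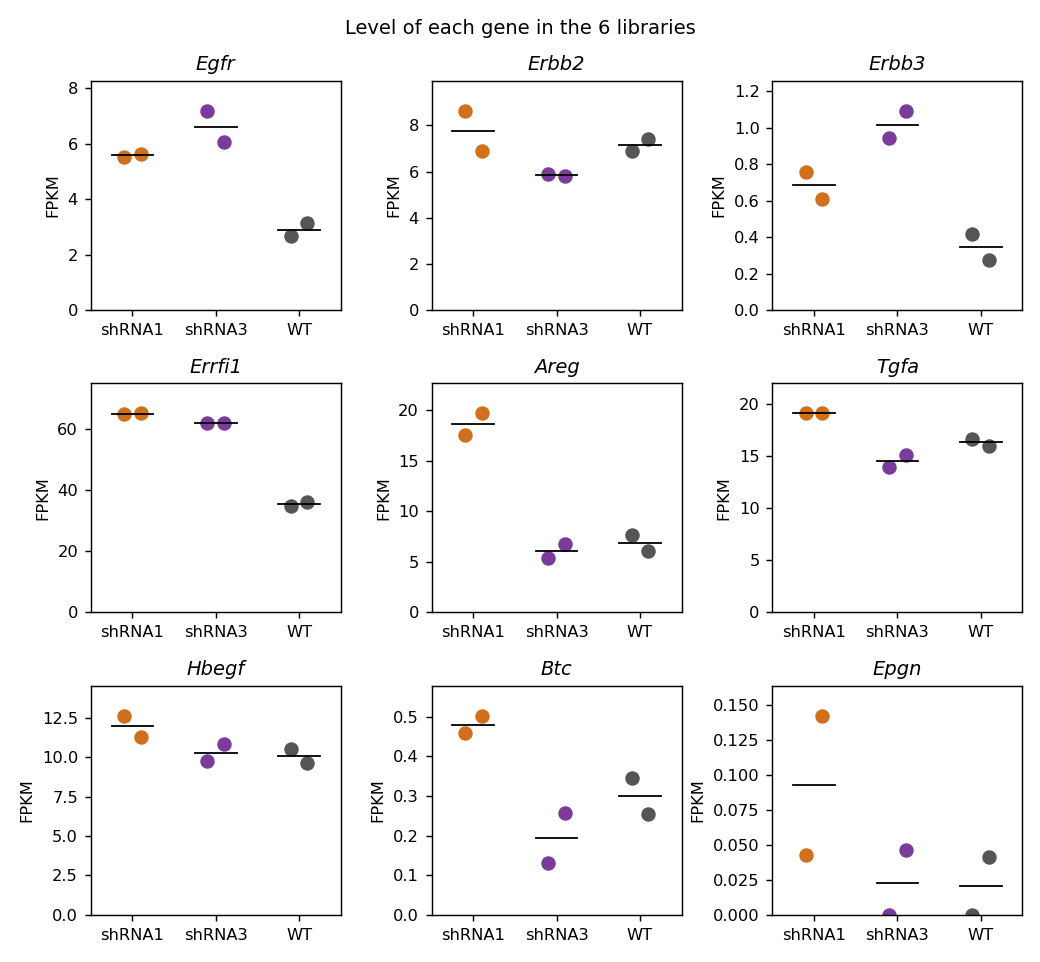
Level in FPKM (vertical axes, each starting at 0) of 9 genes in the 2 libraries of shRNA1, shRNA3 and WT cells; points are libraries and lines are group means, and Ereg, listed at 0 in every library, is not drawn. Egfr, Erbb3 and Errfi1 were above both WT libraries in all 4 knockdown libraries, as were 18.5% of the genes with a value above 0. Areg was high in the shRNA1 libraries alone, at 17.6 and 19.7 FPKM.

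Of the receptor genes that passed the filter, Egfr and Erbb2, Egfr rose with both hairpins. Egfr was at 5.53 and 5.64 FPKM in the shRNA1 libraries and at 7.18 and 6.05 FPKM in the shRNA3 libraries, against 2.66 and 3.12 FPKM in the WT libraries. All 4 knockdown libraries lay above both WT libraries, as they did for 22.2% of all genes tested. The group means were 5.58 ± 0.0806 FPKM with shRNA1 and 6.62 ± 0.801 with shRNA3, against 2.89 ± 0.329 in WT (SD, n = 2 each), which is 1.93-fold and 2.29-fold of WT. The log2 change was 0.76 ± 0.10 with shRNA1 (SE, limma, adjusted p = 9.24e-04) and 0.97 ± 0.10 with shRNA3 (adjusted p = 1.43e-04). The hairpins did not differ past the threshold, with a difference of 0.21 for shRNA3 against shRNA1 and a 95% interval of -0.02 to 0.44 (adjusted p = 0.131). In bulk RNA such as this, a change in the number of cells that express a gene and a change in RNA per cell cannot be told apart.

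Erbb2, the preferred partner of the other receptors, did not follow Egfr. It was at 8.63 and 6.91 FPKM under shRNA1 and at 5.90 and 5.80 FPKM with shRNA3, against 6.88 and 7.43 FPKM in WT. Both shRNA3 libraries lay below the other 4, an order whose share over all genes was not counted, here or for the ligands below. The shRNA1 libraries differed from each other by more than the WT libraries did. Its log2 change was 0.10 with shRNA1 (95% interval -0.13 to 0.33, adjusted p = 0.475) and -0.25 with shRNA3 (-0.48 to -0.02, adjusted p = 0.0610). Erbb2 was lower in shRNA3 than in shRNA1 cells by a log2 difference of -0.35 ± 0.10 (adjusted p = 0.0233). This call ended without shRNA1 replicate 1 (-0.21, adjusted p = 0.128), without shRNA3 replicate 1 (0.0789), without shRNA3 replicate 2 (0.0944) and with no filter (0.0688), in a range of 0.00931 to 0.128 over all alternatives. For shRNA3 against WT, Erbb2 was called lower without shRNA1 replicate 1 (0.0264) or 2 (0.0253) and with libraries rescaled to the same total (-0.32, adjusted p = 0.0195), in a range of 0.0195 to 0.226.

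Erbb3 was at a low level, and its mean over the 6 libraries, 0.683 FPKM, was below the filter. It was at 0.759 and 0.609 FPKM under shRNA1 and at 0.943 and 1.09 FPKM with shRNA3, against 0.417 and 0.276 FPKM in WT. All 4 knockdown libraries lay above both WT libraries, an order that 18.5% of the genes with a value above 0 also had. An exact permutation test gave p = 0.133 for 4 against 2 libraries (two-sided), the smallest value that this design allows. With no filter, where 15716 genes were tested, Erbb3 had a log2 change of 0.32 ± 0.08 with shRNA1 (limma, adjusted p = 0.0440) and 0.58 ± 0.08 with shRNA3 (adjusted p = 0.00433), and in that fit 11.6% of all genes were called higher and 10.4% lower with shRNA1, and 18.9% and 18.3% with shRNA3. Over both hairpins its change in that fit was 0.45 (adjusted p = 0.00742), where 16.3% of all genes were called higher and 16.5% lower. The fourth receptor gene, Erbb4, which is not among the 10, was listed at 0 in all 6 libraries.

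The proportions of the receptor RNAs shifted with these values. The ratio of Egfr to Erbb2 FPKM within a library was 0.641 and 0.817 with shRNA1 and 1.22 and 1.04 with shRNA3, against 0.386 and 0.421 in WT. Egfr RNA was thus above Erbb2 RNA in both shRNA3 libraries and below it in the other 4. The 3 receptors summed to 14.9 and 13.2 FPKM with shRNA1 and 14.0 and 12.9 with shRNA3, against 9.96 and 10.8 in WT.

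**Figure D2:**
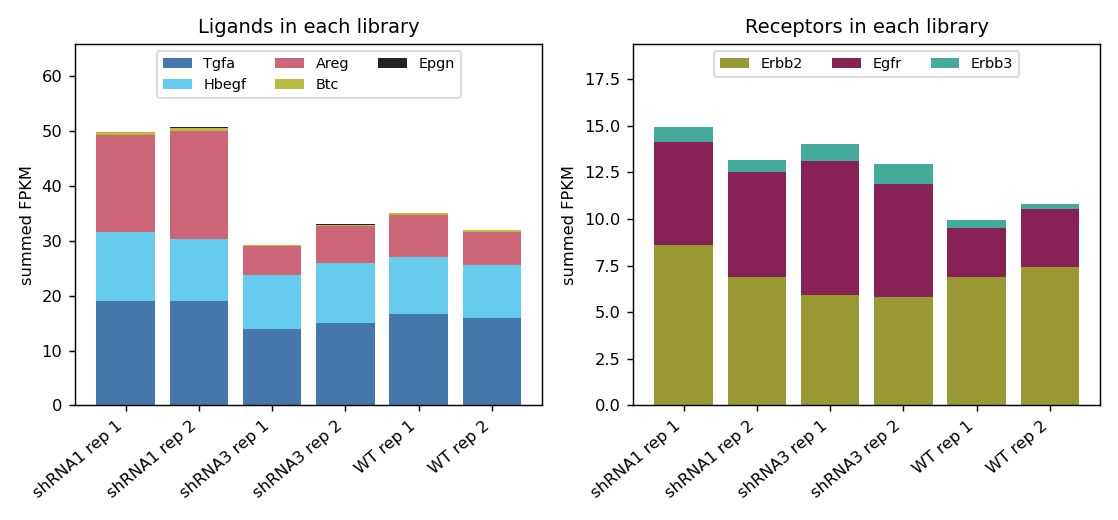
Summed FPKM of the ligand genes (left) and of the receptor genes (right) in each library, with 1 colour per gene; the bars start at 0. The ligand sum was 49.8 and 50.7 FPKM in the shRNA1 libraries and between 29.2 and 35.1 in the other 4, and the Egfr part of the receptor bars was larger in all 4 knockdown libraries than in WT.

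Of the ligands tested, Areg, the gene of amphiregulin, differed most between the hairpins. Areg was at 17.6 and 19.7 FPKM in the shRNA1 libraries and at 5.41 and 6.79 FPKM in the shRNA3 libraries, against 7.62 and 6.08 FPKM in the WT libraries. The shRNA1 libraries stood above the other 4, while the shRNA3 and WT libraries overlapped. The means were 18.7 ± 1.48 FPKM with shRNA1 and 6.10 ± 0.976 with shRNA3, against 6.85 ± 1.09 in WT (SD, n = 2 each). The mean FPKM with shRNA1 was 2.72-fold of WT, and the change in log2(FPKM + 1) was 1.33 ± 0.12 (SE, limma, adjusted p = 1.59e-04). With shRNA3 it was -0.15, with a 95% interval of -0.43 to 0.14 (adjusted p = 0.339). The difference of shRNA3 against shRNA1 was -1.47 ± 0.12 (adjusted p = 1.06e-04). The call of Areg over both hairpins (0.59 ± 0.11, adjusted p = 0.00252) therefore rested on shRNA1, and it ended with both hairpins treated as a common group (adjusted p = 0.443; range over all alternatives 0.00174 to 0.443).

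Tgfa, the gene of TGF-alpha and the most abundant ligand RNA in WT, was also lower in shRNA3 than in shRNA1 cells. Tgfa was at 19.06 and 19.05 FPKM under shRNA1 and at 13.9 and 15.1 FPKM with shRNA3, against 16.6 and 15.9 FPKM in WT. The WT libraries lay between the hairpins with no overlap, an order whose share over all genes was not counted. The mean FPKM of Tgfa in shRNA3 cells was 0.761-fold of that in shRNA1 cells. The difference in log2(FPKM + 1) was -0.37 ± 0.06 (limma, adjusted p = 0.00189). It kept its call under each alternative tried, at differences between -0.43 and -0.32. Its rise with shRNA1 against WT was 0.22 ± 0.06 (adjusted p = 0.0233). That call ended without shRNA1 replicate 1 (0.0878), shRNA1 replicate 2 (0.0882), WT replicate 1 (0.0565) or WT replicate 2 (0.111), and with rescaling to the same total (0.0972), in a range of 0.0117 to 0.111. With shRNA3 its log2 change was -0.16 ± 0.06 (adjusted p = 0.0507), which missed the threshold narrowly, and it was called lower without shRNA3 replicate 2 (-0.21, 0.0425), with pseudocounts of 0.1 (0.0488) and 0.5 (0.0499), with a filter at 5 FPKM (0.0428) and with rescaling (-0.23, 0.0205), in a range of 0.0205 to 0.247.

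Hbegf, which encodes heparin-binding EGF-like growth factor, was at 12.6 and 11.3 FPKM under shRNA1 and at 9.77 and 10.8 FPKM with shRNA3, against 10.5 and 9.62 FPKM in WT. The shRNA1 libraries were the highest 2, and the shRNA3 and WT libraries overlapped. Its log2 change was 0.23 with shRNA1 (95% interval 0.04 to 0.41, adjusted p = 0.0613) and 0.03 with shRNA3 (-0.16 to 0.22, adjusted p = 0.782). With quantile normalization it was called higher with shRNA1 (0.25, adjusted p = 0.0485; range over all alternatives 0.0485 to 0.289).

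The remaining ligand genes were near or at 0. Btc, the gene of betacellulin, was at 0.458 and 0.502 FPKM under shRNA1 and at 0.130 and 0.256 with shRNA3, against 0.344 and 0.255 in WT. These values rested on 19 and 19 fragments with shRNA1 and 6 and 10 with shRNA3, against 15 and 11 in WT. Corrected for depth, the rate with shRNA1 was 160% of WT (95% exact binomial interval 94.6% to 274%), and that with shRNA3 was 62.8% of WT (31.5% to 122%), both spanning 100%. The shRNA3 rate was 39.3% of the shRNA1 rate (20.4% to 72.2%). In the fit with no filter Btc was lower in shRNA3 than in shRNA1 cells by a log2 difference of -0.31 (limma, adjusted p = 0.0234), where 13.8% of all genes were called higher and 13.4% lower. Epgn, the gene of epigen, rested on 1 and 3 fragments with shRNA1 and 0 and 1 with shRNA3, against 0 and 1 in WT, so no change could be detected at this depth. Ereg, the gene of epiregulin, was listed at 0 in all 6 libraries, and a count of 0 allows up to 3 fragments per library. The intervals and this limit cover counting error only.

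The ligand sum within a library was 49.8 and 50.7 FPKM with shRNA1 and 29.2 and 33.0 with shRNA3, against 35.1 and 31.9 in WT. Areg made up 35.4% and 38.9% of it with shRNA1 and 18.5% and 20.6% with shRNA3, against 21.7% and 19% in WT. In the shRNA1 libraries Areg RNA stood level with Tgfa RNA, at 0.924 and 1.03 times its FPKM, against 0.388 and 0.450 times with shRNA3 and 0.459 and 0.381 times in WT.

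Errfi1 was the most abundant of the 10 RNAs in every library, and it rose with both hairpins. Errfi1 was at 64.8 and 65.1 FPKM under shRNA1 and at 62.04 and 61.90 FPKM with shRNA3, against 34.9 and 36.1 FPKM in WT. The 4 knockdown libraries lay close together, all above both WT libraries, an order that 22.2% of all genes tested also had. In mean FPKM the rise was 1.83-fold with shRNA1 and 1.75-fold with shRNA3. The changes in log2(FPKM + 1) were 0.85 ± 0.04 (limma, adjusted p = 6.51e-06) and 0.79 ± 0.04 (adjusted p = 6.79e-06). The difference of shRNA3 against shRNA1 was -0.07 (95% interval -0.16 to 0.03, adjusted p = 0.237). Relative to Egfr, the receptor its product inhibits, Errfi1 FPKM was 11.7 and 11.5 times as high with shRNA1 and 8.64 and 10.2 times with shRNA3, against 13.1 and 11.5 times in WT. The shRNA1 and WT values of this ratio overlapped.

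**Figure D3:**
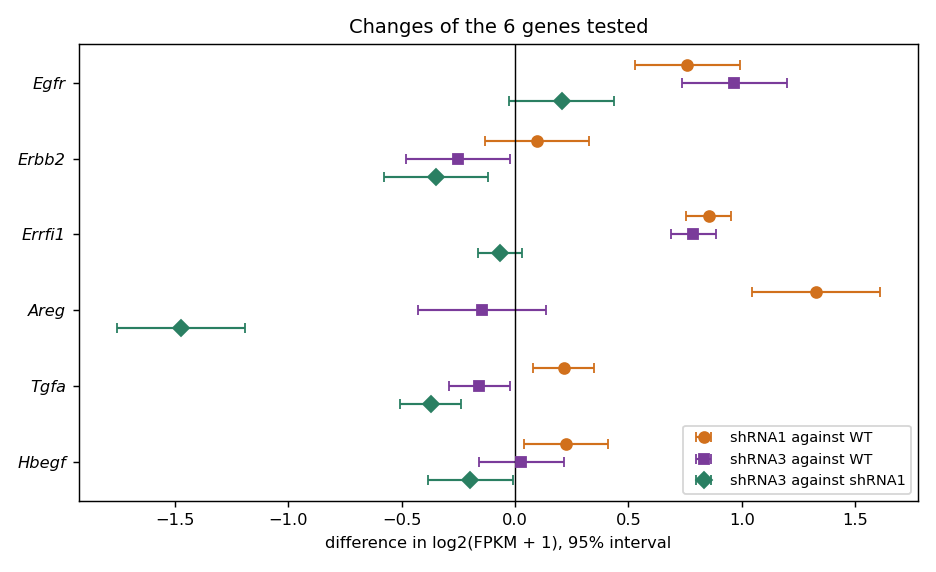
Difference in log2(FPKM + 1) of the 6 genes tested (horizontal axis) for shRNA1 against WT, shRNA3 against WT and shRNA3 against shRNA1, with 95% intervals from limma, n = 2 libraries per group. Egfr and Errfi1 lie to the right of 0 with both hairpins, and Areg does so with shRNA1 only, at 1.33 against -0.15 with shRNA3.

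The order of levels also shows where groups differ. In shRNA1 cells it was Errfi1, Tgfa, Areg, Hbegf, Erbb2, Egfr, Erbb3, Btc and Epgn, with Tgfa and Areg overlapping. In shRNA3 cells it was Errfi1, Tgfa, Hbegf, Egfr, Areg, Erbb2, Erbb3, Btc and Epgn, where Areg overlapped with both Egfr and Erbb2. In WT it was Errfi1, Tgfa, Hbegf, Erbb2, Areg, Egfr, Erbb3, Btc and Epgn, where Erbb2 overlapped with Areg, and Erbb3 with Btc. Errfi1 exceeded 94.4% of all symbols in the shRNA1 mean and 94.0% in the shRNA3 mean, against 89.2% in WT, and Egfr exceeded 64.8% with shRNA1 and 66.7% with shRNA3, against 59.5% in WT.

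Areg, Ereg, Epgn and Btc lie together on mouse chromosome 5 within 376 kb (GRCm38, the assembly of mm10; 91027464 to 91402994). Areg (ENSMUSG00000029378.5) spans 91139599 to 91148432 on the plus strand, Ereg 91074622 to 91093646, Epgn 91027464 to 91035215, and Btc 91357261 to 91402994 on the minus strand. No protein-coding gene other than Ereg and Areg is annotated between Epgn and Btc. Of these 4 neighbours Areg alone reached 1 FPKM. Egfr (ENSMUSG00000020122.16) lies on chromosome 11 at 16752203 to 16918158 and Errfi1 (ENSMUSG00000028967.10) on chromosome 4 at 150853919 to 150868892, both on the plus strand. The 3' end of Erbb2 (chromosome 11, 98412470 to 98437716, plus strand) overlaps that of Mien1 (98437708 to 98438991, minus strand), and Egfr and Errfi1 have annotated antisense genes. The sources used here do not say whether the authors' quantification used strand, so reads of such overlaps cannot be told apart. The antisense gene of Errfi1, 1700045H11Rik, was listed at 0 in every library.

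The promoters of Areg, Errfi1 and Egfr, the 3 genes called over both hairpins, were read from RefSeq sequence of GRCm38.p6. The 150 bases before each start of transcription are given 5′ to 3′ on the plus strand, with the cAMP response element TGACGTCA, the site of CREB-family factors, in capitals where it occurs.
Areg, chr5:91139449-91139598: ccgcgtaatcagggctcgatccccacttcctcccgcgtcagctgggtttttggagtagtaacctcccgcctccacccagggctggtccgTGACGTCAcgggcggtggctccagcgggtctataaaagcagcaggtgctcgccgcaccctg
Errfi1, chr4:150854920-150855069: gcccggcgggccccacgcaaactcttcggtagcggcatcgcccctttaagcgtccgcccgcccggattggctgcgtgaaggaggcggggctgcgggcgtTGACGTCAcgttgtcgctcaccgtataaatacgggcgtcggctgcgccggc
Egfr, chr11:16752053-16752202: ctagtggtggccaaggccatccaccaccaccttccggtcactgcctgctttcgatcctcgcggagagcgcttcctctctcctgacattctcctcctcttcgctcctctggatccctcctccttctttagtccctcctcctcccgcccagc

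In Areg the response element began 61 bases before the start and a TATAAA 31 bases before it. In Errfi1, at the second of its 2 RefSeq starts, they began 51 and 28 bases before it. The Egfr promoter held neither. Promoters of 300 bases, 250 before to 50 after a start, were searched on both strands for 7 of the 10 genes (8 starts), since the table holds none for Erbb3, Ereg and Hbegf. TGACGTCA was found in 1.79% of all 32851 promoters of this length and TATAAA in 13.6%. Of the other motifs searched, the AP-1 site TGANTCA (7.81% of all promoters) and the EGR1 site GCGGGGGCG (2.91%) were in none of the 8. The TEAD site GGAATG (14.7%) was in those of Erbb2 and of the first Errfi1 start, and the hypoxia response core ACGTG (19.6%) was at the second Errfi1 start, where it overlaps the cAMP response element. A match describes the sequence and is not evidence of binding, and FPKM per gene does not tell which start of Errfi1 was used.

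Other genes of the pathway were taken from 5 lists. Of the other receptor and ligands, Nrg1 and Nrg2, which encode neuregulin ligands of ERBB3 and ERBB4, passed the filter. Nrg1 was at 3.50 and 3.83 FPKM under shRNA1 and at 5.85 and 4.84 with shRNA3, against 2.75 and 2.16 in WT. It rose by a log2 change of 0.88 ± 0.12 with shRNA3 (limma, adjusted p = 5.13e-04) and by 0.44 ± 0.12 with shRNA1 (adjusted p = 0.0224), the second of which ended without shRNA1 replicate 1 (0.0556), shRNA1 replicate 2 (0.105) or WT replicate 2 (0.115) and with no filter (0.0651). Nrg2 was at 1.64 and 2.34 FPKM under shRNA1 and at 1.66 and 1.49 with shRNA3, against 2.82 and 2.97 in WT. It fell by 0.60 on the log2 scale with shRNA3 (adjusted p = 0.00530). With shRNA1 it fell by 0.39 (adjusted p = 0.0479), a call that ended without shRNA1 replicate 1 (0.227), shRNA3 replicate 1 (0.0655), shRNA3 replicate 2 (0.0657), WT replicate 1 (0.111) or WT replicate 2 (0.150), and under 5 of the settings that keep all libraries (0.0519 to 0.0864). Egf itself was at most 0.228 FPKM, from 5 to 17 fragments per library, Nrg4 was at most 0.716 FPKM, and Nrg3 was at 0.

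Of 12 genes of ligand release, mainly proteases and rhomboid-family proteins, 9 passed the filter, while Adam8, Adam12 and Timp3 did not. Over both hairpins 4 of the 9 rose and 1 fell, where 24.1% of all genes tested were called higher and 25.9% lower (median log2 change 0.13, against -0.01 for all genes). Adam17, the main sheddase of Areg, Tgfa and Hbegf products, was not called, at 50.1 and 53.5 FPKM with shRNA1 and 49.2 and 48.4 with shRNA3, against 48.6 and 49.5 in WT; it was chosen after its values were seen. Adam10, the sheddase of betacellulin and of EGF, was at 43.5 and 46.1 FPKM under shRNA1 and at 60.5 and 64.6 with shRNA3, against 69.7 and 64.4 in WT. It fell by 0.57 on the log2 scale with shRNA1 (adjusted p = 2.59e-04), and its difference of shRNA3 against shRNA1 was 0.47 ± 0.06 (adjusted p = 6.27e-04). Adam10 was not called with shRNA3 against WT (-0.10, adjusted p = 0.179). Adam15, Rhbdf1 and Adam9 rose by 0.53, 0.43 and 0.37 with shRNA3, at adjusted p of 1.10e-04, 9.73e-04 and 3.84e-04 (limma). Under shRNA1 Rhbdf1 (0.09, adjusted p = 0.295) and Adam9 (0.13, adjusted p = 0.0614) were not called. Adam15 rose by 0.22 under shRNA1 (adjusted p = 0.0138), a call that ended under some alternatives. Rhbdf1 encodes iRhom1, a partner of the ADAM17 protein.

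Among 22 adaptors and effectors that bind the receptors, all tested, 7 rose and 5 fell over both hairpins (median log2 change 0.04), near the 24.1% higher and 25.9% lower of all genes tested. Eps8, an EGFR substrate that acts on actin, was at 59.3 and 58.3 FPKM under shRNA1 and at 41.9 and 46.5 with shRNA3, against 70.0 and 68.4 in WT. It fell by 0.64 on the log2 scale with shRNA3 (limma, adjusted p = 6.36e-05). Pik3cb, a catalytic subunit of PI3K, rose by 0.55 with shRNA3 (adjusted p = 5.86e-04), Gab2, a docking protein, by 0.50 (adjusted p = 0.00218) and Stat5a by 0.45 (adjusted p = 0.00137). Under shRNA1 Gab2 (0.04, limma, adjusted p = 0.788) and Pik3cb (0.17, adjusted p = 0.118) were not called. Stat5a rose by 0.24 (adjusted p = 0.0366) and Eps8 fell by 0.23 (adjusted p = 0.0143) under shRNA1, calls that ended under some alternatives. The call of Gab2 over both hairpins (0.27, limma, adjusted p = 0.0222) ended without shRNA3 replicate 2 or WT replicate 2. It also ended with rescaling to an equal total (0.0623) and with both hairpins fitted as 1 group. Of the 28 genes of receptor trafficking and negative regulation, 27 were found and 25 tested, of which 4 rose and 8 fell over both hairpins (median -0.06), beside the same 24.1% and 25.9% of all genes. Ptpn1, a phosphatase that acts on EGFR, rose by a log2 change of 0.26 over both hairpins (limma, adjusted p = 0.00107). Ptpn12, another phosphatase, fell by 0.27 (adjusted p = 0.00279), a call that ended with both hairpins fitted as 1 group. Cbl, the ubiquitin ligase of EGFR, rose by 0.25 (adjusted p = 0.0165). That call ended without WT replicate 1 or 2, with rescaling (0.0501) and with both hairpins fitted as 1 group. Socs4 fell by 0.23 (adjusted p = 0.0230). Its call ended without shRNA1 replicate 2, shRNA3 replicate 2 or WT replicate 1, with no filter (0.0553) and with both hairpins fitted as 1 group.

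The last list held genes known as output of ERK. Of its 15 genes, all tested, 5 rose and 5 fell with shRNA1 (median log2 change 0.02), where 17.6% of all genes tested were called higher and 18.4% lower. With shRNA3 1 rose and 12 fell (median -0.41), where 27.4% of all genes were called higher and 27.8% lower. In shRNA3 against shRNA1 0 were higher and 14 lower (median -0.52), where 22.0% and 20.5% of all genes tested were called higher and lower. Egr1, an immediate early transcription factor gene, was at 16.3 and 15.5 FPKM under shRNA1 and at 0.567 and 0.954 with shRNA3, against 1.77 and 1.66 in WT, a log2 difference of -3.27 ± 0.12 for shRNA3 against shRNA1 (limma, adjusted p = 4.67e-06). Ier3 was at 588 and 543 FPKM with shRNA1 and 360 and 360 with shRNA3, against 222 and 220 in WT, and so rose with both hairpins. Etv5 and Etv4, of the PEA3 family, fell by 1.17 and 0.88 with shRNA3 (adjusted p = 1.59e-06 and 1.03e-05). With shRNA1 Etv5 and Etv4 fell by 0.22 and 0.24 (adjusted p = 0.00796 and 0.00871), and both calls ended without shRNA1 replicate 2 (0.0509 and 0.0575) or WT replicate 2 (0.0505 and 0.0531).

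**Figure D4:**
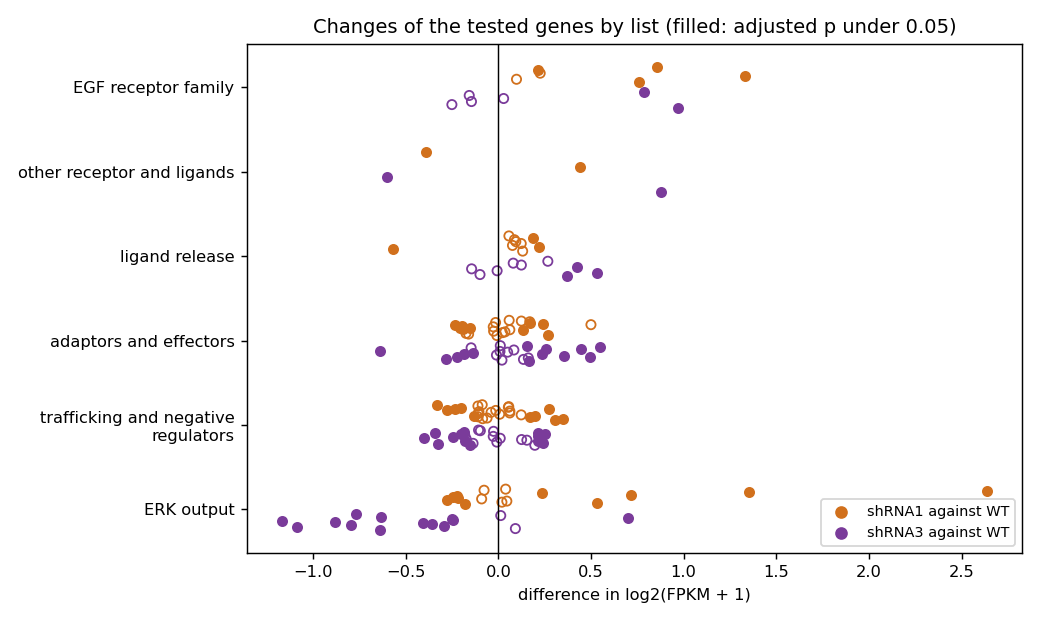
Difference in log2(FPKM + 1) against WT (horizontal axis) of each tested gene of the EGF receptor family and of 5 lists of pathway genes, for shRNA1 and shRNA3; filled points had an adjusted p under 0.05 and open points did not. In the ERK output row 12 filled shRNA3 points lie to the left of 0 and 1 to the right, against 5 on each side with shRNA1.

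Genes with the pattern most like the 3 called over both hairpins were found by the root mean square difference in log2(FPKM + 1), relative to the WT mean, over the 6 libraries. For Egfr they were Gapdh, at 0.068, Pkdcc, at 0.069, and 1190002F15Rik, at 0.079. Gapdh was at 2962 and 2908 FPKM with shRNA1 and 3290 and 3174 with shRNA3, against 1575 and 1712 in WT. As this scale understates the change of a low gene such as Egfr, its closeness to abundant Gapdh depends in part on the added 1. For Errfi1 they were Pfkp, at 0.043, Gbe1, at 0.048, and Jun, at 0.050. For Areg the nearest genes were less close: Saa2, at 0.220, Mmp10, at 0.225, and Idi1, at 0.234. Saa2 was at 35.2 and 36.6 FPKM with shRNA1 and 17.3 and 15.5 with shRNA3, against 15.7 and 15.9 in WT.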

How the data were processed

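Per the labels' protocols, total RNA was isolated on columns and sequenced as stranded mRNA libraries. The authors deposited 1 table per library, whose unit is not written in it. It was taken to be FPKM, because Cufflinks 2.2.1 appears in the submitters' processing notes, beside TopHat2 2.0.13, Bowtie2 2.2.3, SAMtools 0.1.19 and mm10. Roles, options, annotation, strand setting and the handling of multiply mapping reads are not stated there. FPKM is relative to the mapped total, so a rise of abundant genes lowers the rest.

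Groups came from the sample titles. A means model of log2(FPKM + 1) was fitted to the 11079 genes averaging 1 FPKM or more, over all 6 libraries, with limma 3.58.1 (R 4.3.3; trend in the prior variance, 3 residual and 4.96 prior degrees of freedom). Tests were two-sided, with Benjamini-Hochberg adjustment over all genes tested. The fit was checked on simulated data.

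The most frequent ratio of values between 0.1 and 0.6 FPKM gave the relative depth, and low genes whose values then were multiples of 1 fragment, within 0.1 of a whole number, gave fragment numbers; Erbb3 did not. Absolute depth is not known. Coordinates are from GENCODE M21, promoters from RefSeq. Python 3.11.15 with SciPy 1.17.1 was used for exact tests.

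The members and lists were chosen with earlier results of these data known. Named were all 10 members, of each list up to 4 called genes with the largest change over both hairpins, and the 3 genes most like each of 3 members. Alternatives were other pseudocounts, filters and scalings, no trend, a replicate block, both hairpins as 1 group, and leaving out each library.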

Additional observations from a re-analysis of the deposited data

Results flagged for a closer look

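The difference of shRNA3 against shRNA1 does not use the WT levels, but WT libraries entered the filter and the shared estimate of spread. Results are given here where the hairpins differed by the test of shRNA3 against shRNA1 itself (limma, adjusted p under 0.05). Of all genes tested, 22.0% were called higher and 20.5% lower in this comparison (42.5% in all). Among the 6 tested genes of the EGF receptor family the genes called were Areg (log2 difference -1.47), Tgfa (-0.37) and Erbb2 (-0.35). Areg and Tgfa kept this call under every alternative tried, while that of Erbb2 ended without shRNA1 replicate 1, shRNA3 replicate 1 or shRNA3 replicate 2, and with no filter (adjusted p = 0.0688).

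Among the named pathway genes, Nrg1 was higher in shRNA3 than in shRNA1 cells by 0.44, a call that ended without shRNA1 replicate 1 (0.39, adjusted p = 0.0924) or shRNA3 replicate 1 (0.32, adjusted p = 0.118), and with no filter (adjusted p = 0.0562). Of the genes of ligand release, Adam10 was higher by 0.47, Rhbdf1 by 0.33, Adam15 by 0.31 and Adam9 by 0.24. Gab2 and Pik3cb were higher by 0.46 and 0.38, and Eps8 differed by -0.41. Of the 15 ERK output genes 14 were lower and 0 higher in shRNA3 than in shRNA1 cells. Of all genes tested, 20.5% were called lower and 22.0% higher. The ERK output genes named for their change over both hairpins differed by -3.27 (Egr1), -0.94 (Etv5), -0.65 (Ier3) and -0.64 (Etv4).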

How the results depend on the processing

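Fitting both hairpins as 1 group, so that their difference counts as spread, called 1513 genes over both hairpins instead of 5538. It ended the calls of Areg and of every named pathway gene but Ier3 and Ptpn1, while Egfr and Errfi1 kept theirs. Without 1 library each, 3914 to 5029 genes were called over both hairpins, 2604 to 3682 for shRNA1 (3989 with all libraries, 2604 without shRNA1 replicate 2), 4830 to 5992 for shRNA3 and 3222 to 4592 between the hairpins; of the 6 genes tested 3 were called over both hairpins in each case, 3 to 4 for shRNA1, 2 to 3 for shRNA3 and 2 to 3 between the hairpins. Rescaling to the same total called 4 of the 6 for shRNA3 instead of 2, the added ones being Erbb2 and Tgfa, both lower. Values that changed sign were not called under any setting that reversed them: Tgfa over both hairpins with rescaling (-0.03), Erbb2 with shRNA1 without shRNA1 replicate 1 (-0.04; up to 0.24 without another library), Hbegf with shRNA3 with rescaling (-0.04), without shRNA3 replicate 2 (-0.04) or without WT replicate 2 (-0.03; up to 0.10 without another), Gab2 with shRNA1 with rescaling (-0.01) or without WT replicate 2 (-0.03; up to 0.10 without another), and Ptpn1 between the hairpins without shRNA3 replicate 1 (0.00). The cause was not tested.

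The labels do not say whether a replicate number marks a shared culture or day. The deviations of same-numbered libraries correlated at 0.20 between shRNA1 and shRNA3, 0.01 between shRNA1 and WT and -0.07 between shRNA3 and WT. These values cannot settle whether the libraries are paired. With a replicate block 5205 genes were called over both hairpins, 3523 for shRNA1, 5797 for shRNA3 and 4308 between the hairpins, and of the 6 genes 3, 4, 2 and 3. Low counts limit Btc, Epgn, Ereg and Egf. With 2 libraries per group, a spread between cultures cannot be separated from a spread between libraries.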

Other observations

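The genes next to Egfr and Erbb2 were also measured. Sec61g, the nearest protein-coding gene on its lower side, was at 111 and 125 FPKM with shRNA1 and 110 and 101 with shRNA3, against 117 and 117 in WT, and was not called over both hairpins (log2 change -0.07, limma, adjusted p = 0.308). Fbxo48, on its higher side, rose by 0.29 (adjusted p = 0.0243). Mien1, which overlaps the 3' end of Erbb2, rose by 0.46 with shRNA3 (adjusted p = 0.00182), where Erbb2 was at -0.25. Parm1, beyond Btc on chromosome 5, was below the filter, at 0.789 and 0.751 FPKM with shRNA1 and 0.711 and 0.620 with shRNA3, against 0.033 and 0.198 in WT.

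Cblc, a Cbl-family ubiquitin ligase gene below the filter, was at 0.931 and 0.923 FPKM under shRNA1 and at 1.01 and 1.61 with shRNA3, against 0.337 and 0.554 in WT, and all 4 knockdown libraries lay above both WT libraries, an order that 18.5% of the genes with a value above 0 also had. Adam8, a metalloprotease gene, was at 1.37 and 1.14 FPKM under shRNA1 and at 0.838 and 0.752 with shRNA3, against 0.736 and 0.787 in WT. Both were chosen after their values were seen.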
